A study of Mus musculus with 4 samples.

Results

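Genes of DNA replication and of the passage of cells into S phase were followed in PMN-MDSCs, neutrophil-like cells that hold back T cells in hosts with tumours. A list of 49 gene names, set by function, was looked up by exact name in the deposited count table, and all 49 were found among its 18751 distinct names. The cells came from CD300ld KO mice, which lack a CD300 family receptor found on myeloid cells, and from WT mice. All mice were C57BL/6, 8 weeks old, and bore B16-F10 melanoma, a transplantable mouse line, under the skin. PMN-MDSCs were taken at day 15 with a magnetic kit that enriches neutrophils, and the labels name no organ. There were 2 libraries of each genotype, and the labels do not state that each was a different animal. The p-values here are set against the spread of the libraries alone, estimated with information shared across genes, and that spread may be technical.

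A cell that is about to divide first licenses its origins of replication, when ORC, CDC6 and CDT1 load the MCM helicase onto DNA. CDC7 and the cyclin E and CDK2 kinase then switch the helicase on together with CDC45 and the GINS complex, and polymerases α, δ and ε copy the strands with the sliding clamp PCNA. Many of these genes are transcribed late in G1 by E2F factors, once RB family repressors let go. Mature neutrophils have left the cell cycle, whereas their promyelocyte and myelocyte precursors, erythroblasts and large pre-B cells divide.

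The deposited counts summed to 830931 and 835510 in the KO libraries and to 674599 and 920839 in the WT libraries. The targeted gene Cd300ld was at 2 and 3 counts in KO, against 0 and 11 in WT, too few to check the genotype labels. The preparation was mixed, and which of its cells carried the replication transcripts was not measured. Markers of mature neutrophils and of secondary granules (14 of 14 in the table) summed to 5443 and 5242 CPM in KO, against 34464 and 36605 CPM in WT, with 0 higher and 11 lower among 14 tested, and erythroid markers (17 of 18) to 219860 and 200169 CPM in KO, against 159805 and 167732 CPM in WT. Of the melanoma markers, Pmel was at 0 and 2 counts in KO, against 0 and 0 in WT. Mitf was at 0 and 1 counts in KO, against 0 and 2 in WT. The other 6 marker names listed were not among the names in the count table. In bulk libraries fewer cells of a type and less RNA per cell cannot be told apart.

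The replication and G1/S genes did not pass the test in either direction: 0 of the 47 that could be tested were higher and 0 were lower in KO (edgeR quasi-likelihood test, Benjamini-Hochberg adjustment over all genes). Over all 7685 genes tested, 5.97% passed, 2.71% higher and 3.27% lower. The smallest adjusted p among the members was 0.211, that of Slbp, and 3 members had an unadjusted p below 0.05, which is 6.38% of those tested, against 18.9% of all genes. DESeq2 and limma-voom also called 0 members. Summed over all 49, the genes stood at 6479 and 6600 CPM in KO, against 6839 and 6185 CPM in WT, so both KO libraries lay between the WT libraries. They took 0.619% and 0.654% of all counts in KO and 0.660% and 0.606% in WT.

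The fitted changes were small as well as short of the threshold. Their median was 0.051 on the log2 scale, beside 0.0025 over all genes tested, with 27 members above 0 and 20 below. The median size of a change, whatever its sign, was 0.16 for the members and 0.37 for all genes tested. With all 4 libraries, 0 of the 47 reached a fitted change of 1.5-fold, and that of Pole came nearest, at 1.49-fold higher in KO. That limit rested on every library being kept: 1 member passed 1.5-fold without KO library 1, 7 without KO library 2, 3 without WT library 1 and 4 without WT library 2, with the farthest being Rfc3, at 2.36-fold lower in KO without KO library 2 (adjusted p = 0.211). A p that misses the threshold does not bound the size of a change, so 95% intervals were taken from the same fit for each gene. That fit shares information on spread across genes, so an interval does not rest on the gene's own 4 libraries alone. For 37 of 47 members the interval lay within 2-fold either way, a share of 78.7%, against 33.0% of all genes tested, and for 14 it lay within 1.5-fold. Members had more counts than most genes, with a median level of 96.2 CPM (CPM are counts scaled to a common library size after TMM) against 38.2 CPM, and intervals narrow with counts. The median SE was 0.25 for the members and 0.39 for all genes tested. Among the 6870 tested genes within the members' range of mean CPM, the median size of a change was 0.36 and the median SE 0.37. Of these genes, 5.47% passed the threshold. The range did not match levels within it, and the part of counts in the smaller size of the members' changes was not tested. The intervals of the other 10, namely Orc1, Mcm10, Gins1, Gins2, Cdc7, Pold2, Pole, Rfc1, Rfc3 and Rpa3, reached past 2-fold on at least 1 side. With a library left out, 26 to 34 members had intervals within 2-fold.

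**Figure D1:**
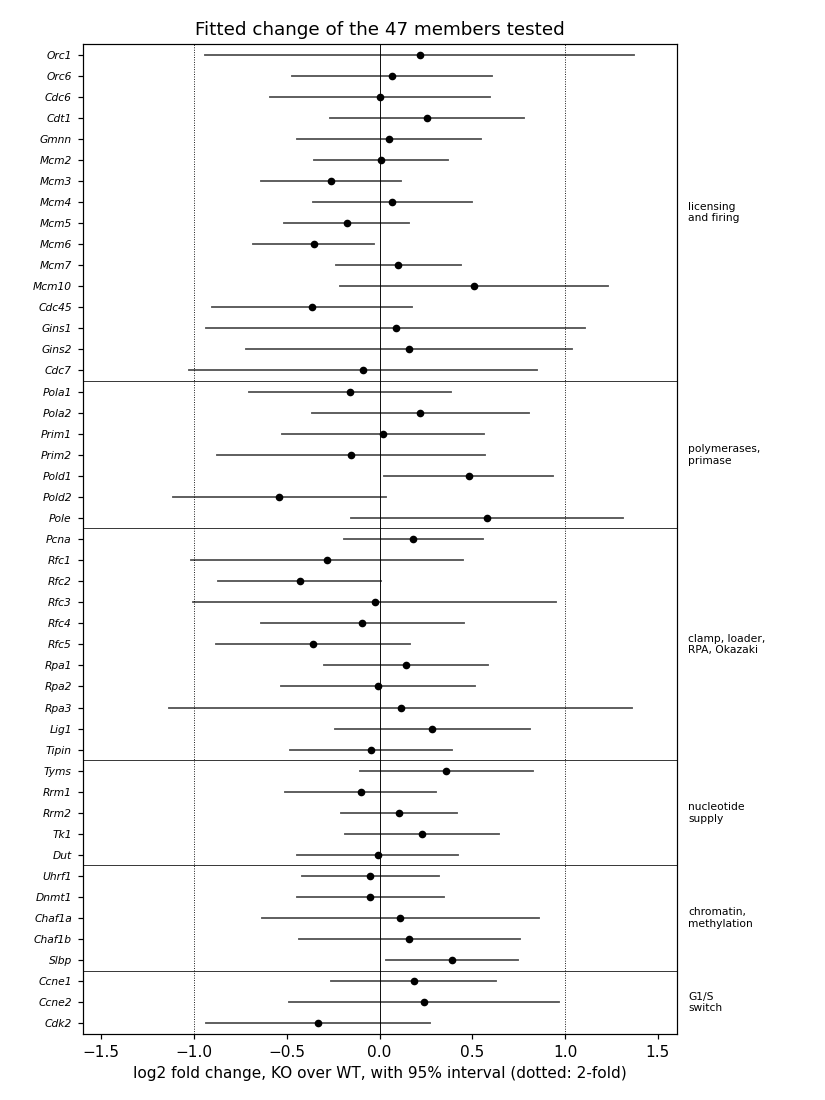
Log2 fold change, KO over WT, of the 47 replication and G1/S genes tested (points) with 95% intervals (bars), grouped by role; dotted lines mark 2-fold. Points run from −0.54 for Pold2 to 0.58 for Pole, and 37 intervals lie between the dotted lines.

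**Figure D2:**
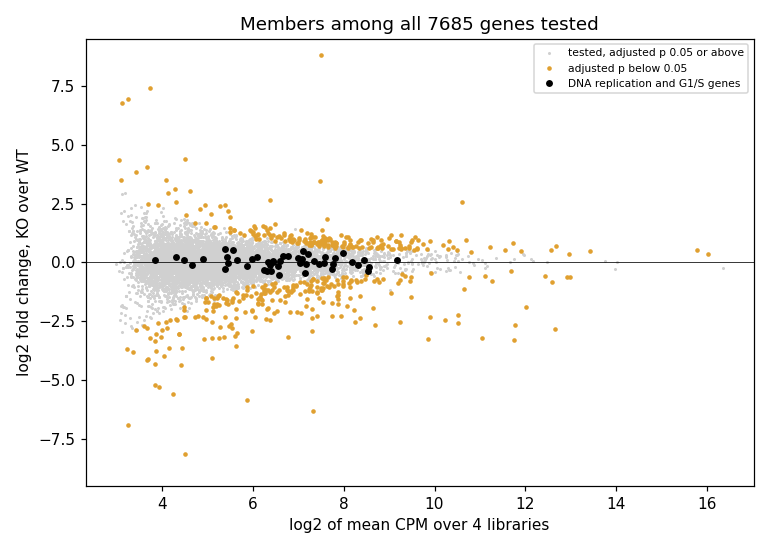
Log2 fold change, KO over WT, against the log2 of mean CPM for all 7685 genes tested, with the 459 genes past the threshold in orange and the replication and G1/S genes in black. The black points lie close to 0 at every level, among genes that moved much further.

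Among licensing and firing genes, the MCM ring genes had the most counts, and only Mcm6 among the 16 had an unadjusted p below 0.05. Mcm6, a subunit of that ring, had 245 and 280 counts in KO, against 282 and 357 in WT, or 309 and 338 CPM in KO, against 433 and 396 CPM in WT. Both KO libraries lay below both WT libraries, and the log2 fold change was −0.36 ± 0.15 (SE, adjusted p = 0.219), with an interval of −0.68 to −0.029. Mcm3, whose product sits beside MCM5 in the ring, had 142 and 173 counts in KO, against 151 and 210 in WT, again with no overlap once scaled, and a change of −0.26 ± 0.18 (SE, adjusted p = 0.484). Mcm5 had 307 and 264 counts in KO, against 247 and 376 in WT, with overlapping libraries and a change of −0.18 ± 0.16 (SE, adjusted p = 0.617). The 3 remaining ring genes also overlapped between genotypes. Mcm2 had 241 and 229 counts in KO, against 208 and 234 in WT, a change of 0.0087 ± 0.17 (SE, adjusted p = 0.988). Mcm4 had 122 and 147 counts in KO, against 116 and 126 in WT, a change of 0.070 ± 0.20 (SE, adjusted p = 0.908). Mcm7 had 261 and 323 counts in KO, against 220 and 300 in WT, a change of 0.10 ± 0.16 (SE, adjusted p = 0.806). The 6 ring genes together summed to a mean of 1685 ± 34.9 CPM in KO, against 1828 ± 73.9 CPM in WT (SD, n = 2 each).

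The sequences before the starts of some of these genes are shown because all ring genes with a window but Mcm2 hold an E2F word, and Pold1 and Slbp are added as the members with the highest lower bounds of their intervals. RefSeq promoter windows (GRCm38.p6, 250 bases before to 50 after a start, 5′ to 3′ along the gene) existed for 40 of the 49 members, in 49 windows. The E2F word was searched as TTTCCCGC, TTTGGCGC, TTTCGCGC or TTTGCCGC on either strand, and capitals mark it in the first 5 sequences; in that of Slbp, which has no E2F word, capitals mark the CCAAT box.
Mcm6, chr1:128359656-128359955, minus strand: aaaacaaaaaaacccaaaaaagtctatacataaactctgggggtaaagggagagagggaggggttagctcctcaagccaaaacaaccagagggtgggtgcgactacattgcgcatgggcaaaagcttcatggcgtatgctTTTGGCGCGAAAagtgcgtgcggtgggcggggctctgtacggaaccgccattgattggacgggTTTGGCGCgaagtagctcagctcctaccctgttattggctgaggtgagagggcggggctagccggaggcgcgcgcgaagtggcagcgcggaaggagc
Mcm3, chr1:20820263-20820562, minus strand: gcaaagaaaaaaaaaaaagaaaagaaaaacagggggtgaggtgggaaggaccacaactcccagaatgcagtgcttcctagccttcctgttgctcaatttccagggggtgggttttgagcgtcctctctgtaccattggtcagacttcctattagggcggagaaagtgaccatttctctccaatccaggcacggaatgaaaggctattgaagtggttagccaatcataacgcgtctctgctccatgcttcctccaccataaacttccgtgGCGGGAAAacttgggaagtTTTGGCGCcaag
Mcm5, chr8:75109259-75109558, plus strand: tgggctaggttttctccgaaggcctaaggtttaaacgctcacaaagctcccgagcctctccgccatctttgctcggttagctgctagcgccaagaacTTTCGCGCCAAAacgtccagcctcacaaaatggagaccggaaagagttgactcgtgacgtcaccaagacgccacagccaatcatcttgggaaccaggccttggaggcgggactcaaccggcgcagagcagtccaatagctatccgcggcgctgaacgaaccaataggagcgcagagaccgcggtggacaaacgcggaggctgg
Mcm7, chr5:138171834-138172133, minus strand: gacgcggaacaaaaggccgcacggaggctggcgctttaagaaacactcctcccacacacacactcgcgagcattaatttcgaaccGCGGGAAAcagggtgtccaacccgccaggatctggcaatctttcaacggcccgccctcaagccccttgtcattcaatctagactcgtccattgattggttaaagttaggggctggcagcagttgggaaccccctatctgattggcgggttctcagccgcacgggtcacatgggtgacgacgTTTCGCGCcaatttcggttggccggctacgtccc
Pold1, chr7:44548766-44549065, minus strand: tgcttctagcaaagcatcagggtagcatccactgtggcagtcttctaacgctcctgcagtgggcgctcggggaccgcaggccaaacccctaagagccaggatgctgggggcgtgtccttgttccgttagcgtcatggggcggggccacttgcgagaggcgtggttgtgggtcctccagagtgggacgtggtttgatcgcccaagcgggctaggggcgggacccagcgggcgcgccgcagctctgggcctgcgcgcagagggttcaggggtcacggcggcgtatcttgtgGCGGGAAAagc
Slbp, chr5:33652525-33652824, minus strand: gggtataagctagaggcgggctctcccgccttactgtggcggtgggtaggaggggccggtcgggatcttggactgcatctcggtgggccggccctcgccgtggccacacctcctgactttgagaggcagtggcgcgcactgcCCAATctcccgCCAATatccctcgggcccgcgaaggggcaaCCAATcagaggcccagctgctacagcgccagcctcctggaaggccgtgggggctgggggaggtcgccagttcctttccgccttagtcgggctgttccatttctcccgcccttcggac

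Mcm6 held 3 E2F words, and Mcm3, Mcm5 and Mcm7 held 2 each in the windows shown, while the Mcm2 window held none. Over the members, 14 of 49 windows had at least 1 E2F word, or 28.6%, against 2.26% of all 32851 windows in the table. The other replication genes that are not members had 33.3%, and genes of mitosis 3.70%. The CCAAT box, searched on either strand, lay in 57.1% of the members' windows, in 42.2% of those of the other replication genes, in 81.5% of those of mitotic genes and in 37.4% of all windows. Of 21 E2F words in the members' windows, 2 overlapped the next one and 1 overlapped a CCAAT box. These matches describe the letters in the windows, and no binding was measured.

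The loaders and activators of the helicase showed no call either. Orc1 and Orc6, subunits of the origin recognition complex, had 17 and 17 counts in KO, against 17 and 10 in WT, and 62 and 83 counts in KO, against 61 and 70 in WT. Cdc6 had 64 and 76 counts in KO, against 74 and 56 in WT, a change of 0.0010 with an interval of −0.59 to 0.59. Cdt1 had 90 and 103 counts in KO, against 50 and 108 in WT, and its inhibitor geminin, Gmnn, 73 and 86 counts in KO, against 61 and 86 in WT; WT library 1 was the low one for Cdt1, and the genotypes overlapped for both genes. Cdc45, which joins the MCM ring to form the active helicase, had 50 and 63 counts in KO, against 59 and 80 in WT. Once scaled, it was below WT in both KO libraries, at 63.0 and 76.1 CPM in KO, against 90.6 and 88.6 CPM in WT. Its change was −0.36 ± 0.25 (SE, adjusted p = 0.498). Mcm10, which acts as the helicase fires, was above WT in both KO libraries, with 48 and 41 counts in KO, against 30 and 29 in WT. Its change was 0.51 ± 0.34 (SE, adjusted p = 0.470). Gins1, Gins2 and Cdc7 had 16 to 27 counts in every library, with changes between −0.090 and 0.16.

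Polymerase genes included the widest spread among the roles. Pold1, the catalytic and proofreading subunit of polymerase δ, had 141 and 121 counts in KO, against 67 and 115 in WT, or 178 and 146 CPM in KO, against 103 and 127 CPM in WT. Its KO libraries lay above both WT libraries, with a change of 0.48 ± 0.21 (SE, adjusted p = 0.233) and an interval of 0.025 to 0.93. Pold2, the accessory subunit of the same enzyme, leaned the other way, with 45 and 81 counts in KO, against 69 and 107 in WT, no overlap once scaled, and −0.54 ± 0.27 (SE, adjusted p = 0.297). KO library 1 was the lowest for Pold2, and omitting KO library 2 gave −0.99 (adjusted p = 0.0678), while omitting KO library 1 gave −0.22 (adjusted p = 0.815). In counts, Pold1 over Pold2 was 3.13 and 1.49 in KO and 0.971 and 1.07 in WT. Of 8 such ratios between partner genes, chosen after the values were seen, 2 did not overlap, the other being Mcm6 over Mcm2 (1.02 and 1.22 in KO, 1.36 and 1.53 in WT). Neither Pold1 nor Pold2 passed the test, and Pold3 and Pold4, the remaining subunits, had changes of 0.22 and 0.040.

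Pole, the catalytic subunit of polymerase ε, which copies the leading strand, had 42 and 39 counts in KO, against 21 and 31 in WT, the largest fitted rise of the members, at 0.58 ± 0.34 (SE, adjusted p = 0.407); both KO libraries lay above WT, and the interval ran from −0.15 to 1.31. The genes of the polymerase α and primase complex, which lays down primers, had changes between −0.16 for Pola1 and 0.22 for Pola2, with Prim1 at 0.018 and Prim2 at −0.16. Pola1 had 71 and 72 counts in KO, against 78 and 72 in WT. Pola2 was the member of that complex whose libraries did not overlap, with 74.3 and 72.4 CPM in KO, against 53.8 and 70.9 CPM in WT.

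Pcna, the sliding clamp, had 182 and 204 counts in KO, against 146 and 177 in WT, or 229 and 246 CPM in KO, against 224 and 196 CPM in WT. Its KO libraries were both above WT by a small margin, and the change was 0.18 ± 0.18 (SE, adjusted p = 0.648) with an interval of −0.19 to 0.56. All 5 subunits of the clamp loader RFC had fitted changes below 0, from −0.43 to −0.026, none past the threshold, and together they summed to a mean of 355 ± 25.1 CPM in KO, against 433 ± 15.5 CPM in WT (SD, n = 2 each). Rfc2 had 90 and 105 counts in KO, against 116 and 133 in WT, a change of −0.43 ± 0.21 (SE, adjusted p = 0.278). Once scaled, Rfc1 and Rfc5 were also below WT in both KO libraries. Rfc3 had 15 and 57 counts in KO, against 23 and 48 in WT, and its KO libraries stood 1.86 apart on the log2 scale, the widest gap within a genotype among tested members; omitting KO library 2 gave −1.24, while omitting KO library 1 gave 0.60. The changes of Rfc1, Rfc2 and Rfc5 were below 0 in each fit that left out a library, whereas that of Rfc3 was also above 0 without WT library 2 (0.31) and that of Rfc4 without KO library 2 (0.074). The single-strand binding genes Rpa1 and Rpa2 had 0.14 and −0.0078, and Rpa3 stood at 10 to 13 counts per library.

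Lig1, the ligase that seals Okazaki fragments, had 105 and 75 counts in KO, against 59 and 83 in WT, with KO library 1 above the rest and a change of 0.28 ± 0.25 (SE, adjusted p = 0.604). Tipin, of the fork protection complex, had 108 and 122 counts in KO, against 85 and 145 in WT, a change of −0.048 ± 0.21 (SE, adjusted p = 0.943). Fen1, the nuclease that trims the flaps of those fragments, had 1 and 3 counts in KO, against 1 and 0 in WT, below the filter on low counts, although the partner genes Pcna and Lig1 had 59 counts or more in each library. Whether the authors' counting lost reads of Fen1 was not tested.

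The nucleotide supply genes held the member with the most counts. Rrm2, the regulatory subunit of ribonucleotide reductase, had 454 and 514 counts in KO, against 398 and 452 in WT, or 572 and 620.5 CPM in KO, against 611 and 501 CPM in WT, with overlapping libraries and a change of 0.10 ± 0.15 (SE, adjusted p = 0.784). Its interval, −0.21 to 0.42, was the narrowest of the members. Rrm1, the large subunit, had 249 and 250 counts in KO, against 263 and 236 in WT, a change of −0.10 ± 0.19 (SE, adjusted p = 0.847), with WT library 1 highest once scaled. Tyms, which makes thymidylate, had 156 and 115 counts in KO, against 92 and 109 in WT, with KO library 1 high and a change of 0.36 ± 0.22 (SE, adjusted p = 0.417). Tk1, the salvage kinase for thymidine, and Dut, which removes dUTP, had changes of 0.23 and −0.010, and all 5 genes of this role overlapped between genotypes.

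Among chromatin genes, Slbp, which binds the stem-loop of replication-dependent histone mRNAs, had 221 and 246 counts in KO, against 146 and 194 in WT, or 278 and 297 CPM in KO, against 224 and 215 CPM in WT. Both KO libraries lay above both WT libraries, the change was 0.39 ± 0.17 (SE, adjusted p = 0.211), and the interval was 0.037 to 0.75. Uhrf1, which reads half-methylated CpG sites behind the fork, had 171 and 176 counts in KO, against 151 and 191 in WT and a change of −0.049 ± 0.17 (SE, adjusted p = 0.926). Dnmt1, the maintenance methyltransferase that UHRF1 brings there, had 142 and 139 counts in KO, against 123 and 154 in WT and a change of −0.049. Chaf1a and Chaf1b, subunits of the histone chaperone CAF-1, had 0.11 and 0.16.

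The switch into S phase was likewise without a call. Ccne1, encoding cyclin E1, had 103 and 117 counts in KO, against 75 and 111 in WT, a change of 0.18 ± 0.21 (SE, adjusted p = 0.718), and Ccne2 had 0.24. Cdk2, their kinase partner, had 42 and 66 counts in KO, against 62 and 66 in WT, a change of −0.33 ± 0.28 (SE, adjusted p = 0.601), with KO library 1 lowest and a change that ran from −0.66 to −0.079 as each library was left out. E2f1, an activator of S phase genes, had 2 and 6 counts in KO, against 12 and 6 in WT and lay below the filter. Its summed counts, 8 in KO and 18 in WT, gave a KO to WT ratio of 0.426. Its exact interval at 95% was 0.160 to 1.03, which reflects counting error alone.

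**Figure D3:**
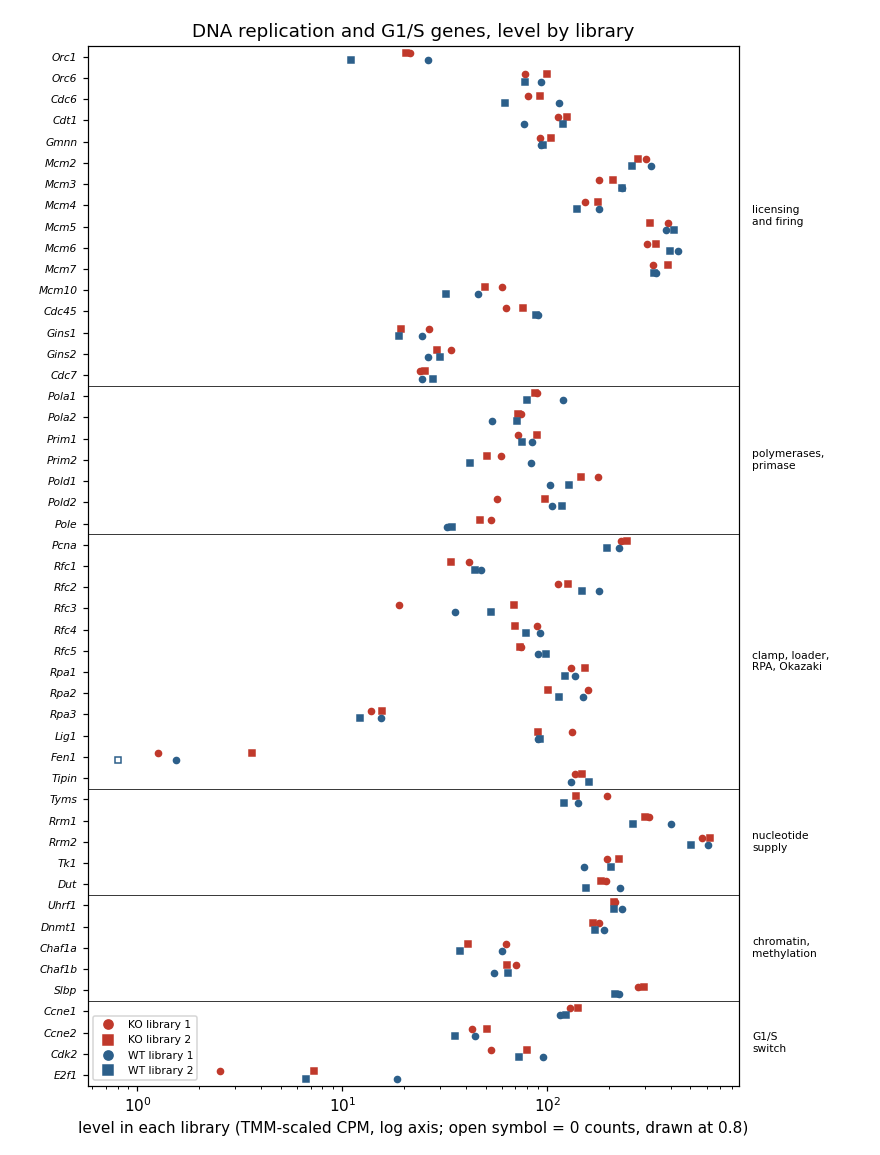
Level of all 49 replication and G1/S genes in each library (TMM-scaled CPM, log axis), KO in red and WT in blue, grouped by role. The colours interleave for most genes, those of 14 tested members separate (7 with KO higher, Pold1 and Slbp among them, and 7 with KO lower, Mcm6 and Cdc45 among them), and Fen1 and E2f1 stand at the low end.

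Libraries of the members overlapped between genotypes more often than not. For 7 tested members both KO libraries lay above both WT libraries and for 7 both lay below, which is 14.9% each, against 24.5% and 23.6% of all genes tested. The 7 above were Mcm10, Pola2, Pold1, Pole, Pcna, Slbp and Ccne1, and the 7 below were Mcm3, Mcm6, Cdc45, Pold2, Rfc1, Rfc2 and Rfc5. Libraries of 1 genotype differed by about as much as libraries of different genotypes. The median size of the difference per member was 0.19 on the log2 scale between the KO libraries and 0.27 between the WT libraries, and 0.22 to 0.28 between a KO and a WT library. Over all genes tested it was 0.34 and 0.35 within KO and WT, and 0.45 to 0.47 across. WT library 1 was above WT library 2 for 30 of the 47 members, and without WT library 2 the members' median change was −0.095, without WT library 1 it was 0.12.

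Other genes of the same pathway were read from lists made by function. Of 44 tested replication genes outside the members, 0 were higher and 0 lower, with a median of 0.029, and 2 had an unadjusted p below 0.05. Their fitted changes ran from −2.26 to 0.73, with 23 above 0 and 21 below. The lowest upper bound of an interval among them was −0.43. Ssrp1, a subunit of the histone chaperone FACT, had 151 and 175 counts in KO, against 135 and 199 in WT and Rbbp4, a histone-binding subunit of CAF-1, had 137 and 166 counts in KO, against 118 and 186 in WT. Of 19 other regulators of G1 and S, 2 were higher and 0 lower, with a median of 0.17. Over all genes tested, 2.71% were higher and 3.27% lower. Fitted changes of the 19 ran from −1.76 to 1.07, with 11 above 0 and 8 below. Both KO libraries lay above both WT libraries for 8 of them and below for 4, against 24.5% and 23.6% of all genes tested. Summed, the 24 of this list in the table were at 4200 and 3671 CPM in KO, against 3315 and 3152 CPM in WT. E2f4, an E2F that works with RB family proteins as a repressor and is needed for red cell production in mice, had 228 and 221 counts in KO, against 92 and 121 in WT, and was 2.01-fold higher in KO, at 1.01 ± 0.18 (SE, adjusted p = 0.00217). E2f2, an E2F found in erythroblasts, had 623 and 538 counts in KO, against 332 and 400 in WT, at 0.59 ± 0.15 (SE, adjusted p = 0.0229). The E2f4 call held under each alternative, with adjusted p up to 0.00723, whereas that of E2f2 ended without KO library 1 (adjusted p = 0.298) and without WT library 2 (adjusted p = 0.0603). Erythroid markers, of which 11 of 17 were higher and 0 lower with a median of 0.48, moved in the same libraries, and their part in the E2f4 and E2f2 values was not tested.

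Of 10 tested CDK inhibitors and p53 checkpoint genes, 0 passed the threshold, with a median of 0.28. Summed, the 11 of this list in the table were at 1032 and 940 CPM in KO, against 757 and 773 CPM in WT. Btg2, an antiproliferative p53 target, had 255 and 259 counts in KO, against 116 and 217 in WT, at 0.59 ± 0.18 (SE, adjusted p = 0.0699), and Trp53, which encodes p53 itself, had 217 and 166 counts in KO, against 131 and 161 in WT, at 0.32 ± 0.19 (SE, adjusted p = 0.412).

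Of 30 genes of mitosis and G2/M, the phases after replication, 3 were higher and 0 lower in KO, beside 2.71% higher among all genes tested, and DESeq2 called 1 of the 30 higher. Their median was 0.20, and 27 fitted changes were above 0. Summed, they were at 6758 and 6596 CPM in KO, against 5342 and 5035 CPM in WT, with both KO libraries above both WT libraries. The mean sum was 1.29 times as high in KO as in WT. That of the erythroid markers was 1.28 times as high in the same libraries and that of the B lineage and pre-B markers 1.29 times. For the CDK inhibitor and p53 checkpoint genes it was 1.29 times and for the other G1/S regulators 1.22 times. Such sums rest most on genes of high level, and Mki67 alone had a mean of 1245 CPM in KO, against 666 CPM in WT. The median change was 0.48 for the erythroid and 0.38 for the B lineage markers, beside 0.20 for the mitotic genes. The part of erythroid and B lineage cells in the mitotic values was not tested. The KO sums of the replication genes lay between those of WT, and the difference between the replication and mitotic lists was not tested. Mki67, which encodes the Ki-67 protein of dividing cells, had 993 and 1027 counts in KO, against 416 and 626 in WT, at 0.90 ± 0.13 (SE, adjusted p = 0.000264). Cdca3, a gene of mitotic entry, had 232 and 160 counts in KO, against 90 and 125 in WT, at 0.81 ± 0.21 (SE, adjusted p = 0.0315), and Cenpe, a kinetochore motor gene, had 87 and 133 counts in KO, against 48 and 65 in WT, at 0.89 ± 0.25 (SE, adjusted p = 0.0456). The Mki67 call held under each alternative, with adjusted p up to 0.000550. DESeq2 called it but neither of the others, with adjusted p = 0.0998 for Cdca3 and 0.201 for Cenpe. When libraries were left out, the Cdca3 call ended without KO library 1 (adjusted p = 0.414), and the Cenpe call ended without KO library 2 (adjusted p = 0.373), WT library 1 (adjusted p = 0.0614) or WT library 2 (adjusted p = 0.1002), and with no scaling beyond library size (adjusted p = 0.0629).

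Markers of cell types that can divide moved in both directions in these libraries. Primary granule genes of neutrophil precursors (9 of 9 in the table) summed to 1166 and 747 CPM in KO, against 3601 and 6315 CPM in WT, with 0 higher and 6 lower among 7 tested. B lineage and pre-B markers (14 of 18) summed to 6520 and 7145 CPM in KO, against 4902 and 5686 CPM in WT, with 1 higher and 0 lower among 12 tested. Monocyte and macrophage markers (11 of 11) summed to 817 and 955 CPM in KO, against 1509 and 1676 CPM in WT, with 0 higher and 4 lower. T and NK markers (11 of 11) summed to 379 and 415 CPM in KO, against 335 and 390.0 CPM in WT, with 0 higher and 1 lower. The lower one was Nkg7, at −1.78, while 10 of the 11 fitted changes were above 0, with a median of 0.40. Progenitor, megakaryocyte, mast cell and basophil markers (11 of 11) summed to 147 and 171 CPM in KO, against 169 and 342 CPM in WT, with 0 of 4 tested called. The part of these cell types in the level of the replication genes was not tested.

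**Figure D4:**
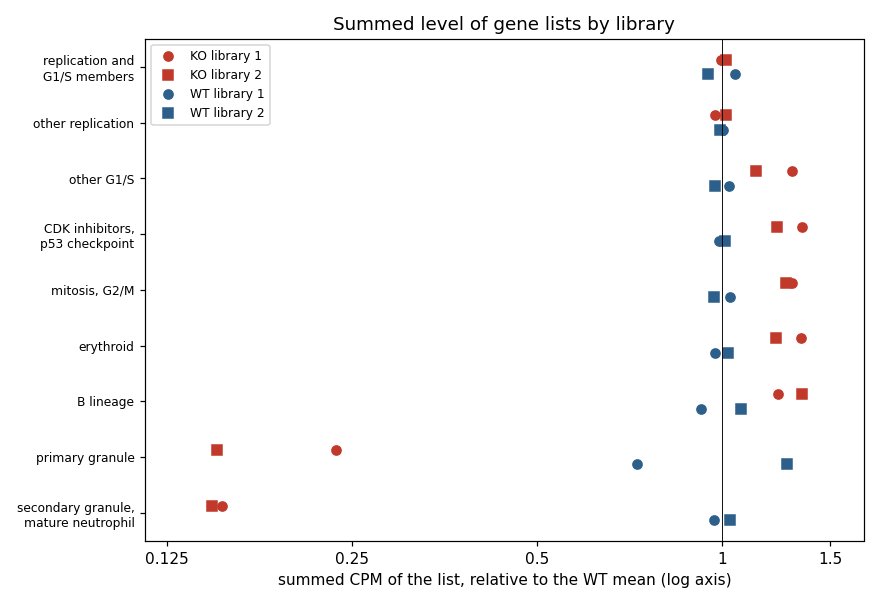
Summed CPM of 9 gene lists in each library, relative to the WT mean of the list (log axis), KO in red and WT in blue. The replication genes and the other replication genes sit near 1 in all 4 libraries. The other G1/S, CDK inhibitor and p53 checkpoint, mitotic, erythroid and B lineage lists are higher in both KO libraries. The granule lists are lower in both KO libraries.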

How the data were processed

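RNA sequencing gave 4 libraries, 2 KO and 2 WT. The deposited table, 1 for the series, holds raw read counts for each gene name as the authors made them, not normalized. Bowtie 0.12.2, mm8 and mm9 are named without a role in the submitters' processing notes; the counter, the annotation and the use of strand are not given in those sources. The table held 21831 rows and 18751 distinct names; 205 names on several rows held identical values, and each was kept once. Column names give a genotype and no sample, so numbers 1 and 2 only name libraries, and nothing was paired.

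Counts were fitted across all genes in R 4.3.3 with edgeR 4.0.16: filterByExpr by genotype (minimum count 10, minimum total 15), TMM scaling, the quasi-likelihood test on genotype, and Benjamini-Hochberg adjustment over every gene tested (threshold 0.05). The SE was the log2 fold change divided by the square root of F, and 95% intervals used the t distribution of the fit. Alternatives were other scalings, filters, DESeq2 1.42.0, voom in limma 3.58.1, an adjusted p of 0.1, fewer genes and leaving out each library. Members, lists and rules were chosen with earlier results of these data known. All members were to be named by role, with counts for those called, the 2 with most counts per role, Pcna, Mcm2 to Mcm7 and E2f1, and up to 4 called genes of each other pathway list (or, where none was called, the 2 with most counts). Further members with values in the text, and the partner ratios, were chosen after their values were seen. The sums over the MCM ring genes and over the RFC genes were not planned beforehand either. Promoter windows came from RefSeq tables of GRCm38.p6 and share no coordinates with the count table.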

Additional observations from a re-analysis of the deposited data

How the results depend on the processing

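The count of members called was 0 in each direction under all 12 alternatives. Over all genes, 459 calls became 299 with DESeq2 and 700 at an adjusted p of 0.1, and numbered 412 to 538 in the 4 fits that omit a library. The members' median of 0.051 lay between −0.095 (WT library 2 omitted) and 0.12 (WT library 1 omitted). These fits repeat the filter, and 47 or 48 members passed it. Signs of changes near 0 turned: Mcm2 was −0.0013 with DESeq2 and −0.0037 without haemoglobin, immunoglobulin and mitochondrial genes. With a library omitted, Mcm2 ran from −0.15 to 0.14, Mcm4 from −0.11 to 0.23, Mcm7 from −0.027 to 0.21, Rrm1 from −0.40 to 0.21, Rrm2 from −0.044 to 0.23 and Tipin from −0.20 to 0.11. Without a change of sign, Pold2 ran from −0.99 to −0.22, Cdk2 from −0.66 to −0.079, Mcm5 from −0.34 to −0.043 and Pold1 from 0.32 to 0.64. The cause of these shifts was not tested. Mitotic genes called higher were 1 with DESeq2 and 2 or 3 under the other alternatives; the alternatives for mitotic genes, E2f4 and E2f2 were added after the data were seen. No paired analysis was possible because the columns carry no label that ties a KO to a WT library. A genotype left with a single library took its spread from the other. With 2 libraries a genotype, members of few counts, such as Rpa3 and Orc1, had intervals past 2-fold.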
